A study of Mus musculus with 4 samples.

Results

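Spic-/- and control macrophages were compared after hemin and without lipopolysaccharide (LPS), with 1 RNA-seq library on each side. A gene entered the comparison with at least 5 FPKM (fragments per kilobase of transcript, scaled for library size) in 1 of these 2 libraries, and 7762 of the 23284 listed genes did. The measure was the log2 ratio of (FPKM + 1), knockout over control, so that a positive value is a higher level in the knockout. With 1 library a side there is no replicate check and no test. Intervals are exact (Clopper-Pearson) 95% intervals from estimated fragment numbers and cover counting error only. A ratio printed with its interval is the FPKM ratio itself, and ratios and medians without an interval are log2 ratios.

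The cells were bone marrow-derived macrophages, which are grown in culture from mouse marrow progenitors. The control group is labelled Spic+/+ and the knockout group Spic-/-. The sample titles call the knockout cKO, a conditional one, and the labels give neither the deleted allele nor a Cre driver, nor the animals, their number, age or strain. Both groups had received 40 µM hemin for 18 h (written as mM in the description of each sample), and no LPS was added in the following 4 h. A second pair of libraries, control and knockout which received LPS at 100 ng/ml over those 4 h, shares no library with the first and is set beside it where it helps to read a value. Differences between the libraries include whatever differed between the cultures besides the genotype.

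Spi-C, the product of Spic, is an Ets-family transcription factor related to PU.1 (encoded by Spi1, listed here as Sfpi1). Heme induces it in macrophages, and it is required for red pulp macrophages of the spleen, which take up aged red cells, break down their heme and return the iron. Hemin in the culture medium loads macrophages with heme, which heme oxygenase (Hmox1) degrades, ferritin (Fth1, Ftl1) stores as iron and ferroportin (Slc40a1) exports as iron.

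Spic was lower in the library labelled knockout. Without LPS the control library had 53.1 FPKM and the knockout library 14.98 FPKM, and with LPS they had 406 and 80.8 FPKM. The log2 ratio was −1.76 without LPS, and the ratio of FPKM was 0.282 (0.248 to 0.32). The values are per gene, so the remaining fragments cannot be placed on exons. The 28 other genes of the comparison within 5 Mb of Spic on chromosome 10 had ratios between −0.30 and 0.52, with a median of 0.07, and none reached 1.5-fold. The highest of them was Igf1, the gene of insulin-like growth factor 1, with 191.8 FPKM in the control and 275.4 in the knockout library.

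The libraries were those of macrophages, with a minor mesenchymal signal. Of 19 macrophage markers, 16 reached 1 FPKM in either library, and Timd4, Vsig4 and Clec4f did not. Emr1 (F4/80), Csf1r and Cd68 stood at 439, 319 and 706 FPKM in control and at 549, 371 and 789 FPKM in knockout. None of 16 endothelial markers and none of 14 mast cell, basophil and eosinophil markers reached 1 FPKM in either library, and 1 of 15 T and NK cell markers and 1 of 14 erythroid markers did. Matrix genes of fibroblasts reached 40 of 42, with Col1a1 at 84.04 FPKM in control. Depth, estimated from the spacing of low values, was 82.8% of control in the knockout library without LPS, and 67.8% and 51.6% in control and knockout with LPS.

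Most genes stood at nearly the same level in the 2 libraries. The median log2 ratio over the 7762 genes was 0.07, and the middle 50% of them lay between −0.03 and 0.17. At least 2-fold higher in the knockout were 38 genes (0.49%), and 32 (0.412%) were at least 2-fold lower. At 1.5-fold, 136 (1.75%) were higher and 106 (1.37%) lower. Small RNA genes made up 24 of the 70 genes past 2-fold, out of 33 such genes in the comparison, and 19 of the 24 were listed at 0 in 1 of the 2 libraries. Without them and without unnamed features, 25 of 7326 named genes (0.341%) were higher by 2-fold or more and 19 (0.259%) were lower by as much, and 116 (1.58%) and 89 (1.21%) passed 1.5-fold. At the 5 FPKM minimum itself, St7l (4.25 FPKM in control, 5.0003 in knockout) and Tbccd1 (5.0009 and 4.99) were just inside, and Nelf (4.63 and 4.9996) and BC096441 (4.39 and 4.9983) just outside.

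**Figure D1:**
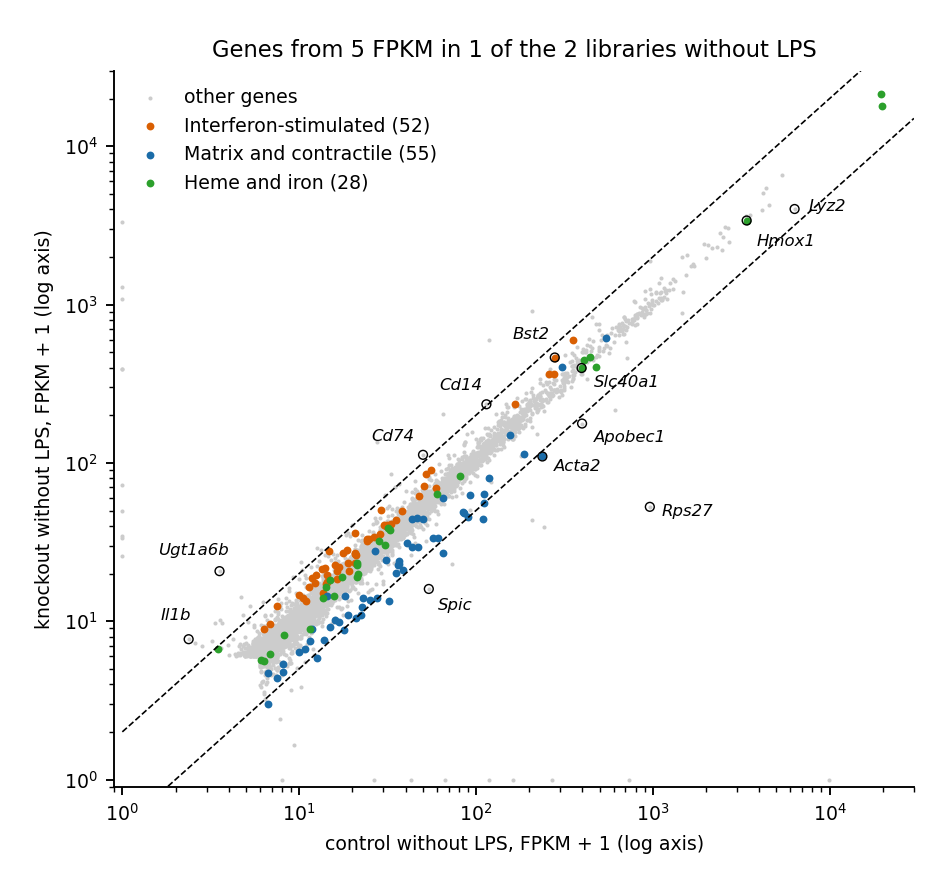
FPKM + 1 in control (x) against knockout (y), both log axes, for the 7762 genes from 5 FPKM, with 3 gene lists coloured, selected genes circled and dashed lines at 2-fold. Interferon-stimulated genes sit above the diagonal, matrix and contractile genes mostly below it, and heme and iron genes on both sides of it; grey points on the axes are genes listed at 0 in 1 library, 19 of the small RNA genes among them.

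The named genes on the 2 sides differed in kind. Of the 116 named genes at least 1.5-fold higher, 41 (35.3%) were on the lists of interferon-stimulated, chemokine, cytokine, class II, effector, complement, NF-kB feedback or Toll-like receptor genes, which hold 179 (2.44%) of the 7326. Of the 89 at least 1.5-fold lower, 40 (44.9%) were on the lists of matrix, contractile or mesenchymal surface genes, which hold 66 (0.901%). Crossing over, 1 of the 116 was on the mesenchymal lists (Ly6a, which interferon also induces), and 3 of the 89 were on the immune lists. These 3 were Thbs1, Cxcl12 and Ptx3, and Thbs1 and Cxcl12 are on the mesenchymal lists as well. The lists were chosen with earlier results of these data known.

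**Figure D2:**
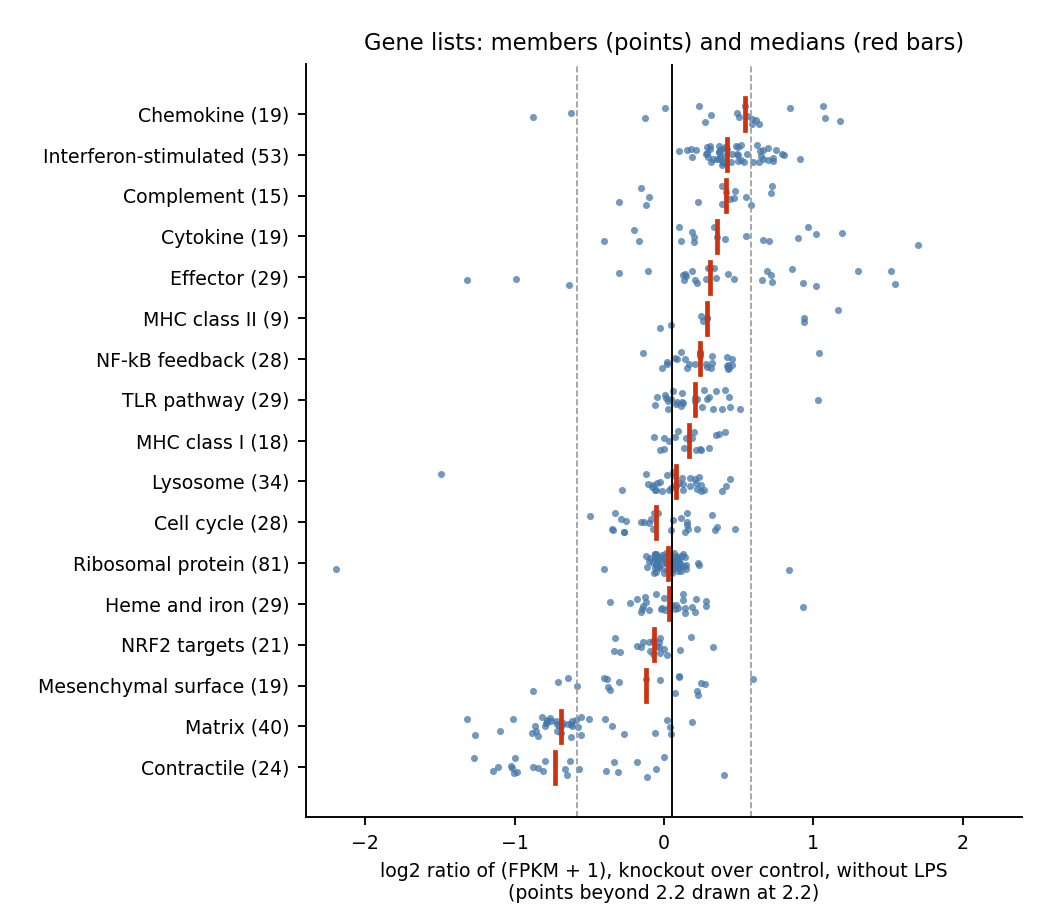
Log2 ratio of (FPKM + 1), knockout over control without LPS (x), for the members from 1 FPKM of 17 gene lists (y, with the number of members); red bars are medians, the black line is the median of all genes from 1 FPKM (0.05) and dashed lines mark 1.5-fold. Medians run from −0.73 for contractile genes and −0.69 for matrix genes to 0.42 for interferon-stimulated genes and 0.54 for chemokines.

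For list members the minimum was 1 FPKM in 1 of the 2 libraries. Over all 10583 genes with that minimum, 181 (1.71%) were higher by 1.5-fold or more and 197 (1.86%) were lower by as much.

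Interferon-stimulated genes were higher throughout the list but none by 2-fold. All 53 measured members had ratios above 0, against 6678 of the 10583 genes, with a median of 0.42 and a range from 0.10 (Adar) to 0.91 (Ifi205). Of the 53, 15 were at least 1.5-fold higher and 0 lower. These genes are switched on by type I interferon through the interferon-stimulated response element in their promoters.

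The element is shown in its place in the promoters of Isg15, a ubiquitin-like modifier, and Ifit3, which restricts viral RNA, because these are 2 of the genes that were higher together. A promoter with another element, that of the myosin light chain gene Myl9, is shown beside them for the contractile genes, which were lower. Each run is the 250 bases before the annotated start in RefSeq on GRCm38.p6, 5′ to 3′ on the gene's strand: chr4:156200819-156201068 (minus strand) for Isg15, chr19:34583279-34583528 (plus strand) for Ifit3 and chr2:156775214-156775463 (plus strand) for Myl9. Capitals mark, in Isg15 and Ifit3, matches on either strand to the core of the element, GAAA, 2 bases of any kind and GAAA again, and the CArG box, the site of serum response factor, in Myl9.
Isg15: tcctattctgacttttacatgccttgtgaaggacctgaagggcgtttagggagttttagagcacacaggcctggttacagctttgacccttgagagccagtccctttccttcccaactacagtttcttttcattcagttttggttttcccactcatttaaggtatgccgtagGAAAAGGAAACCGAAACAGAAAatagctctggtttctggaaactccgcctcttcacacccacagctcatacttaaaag
Ifit3: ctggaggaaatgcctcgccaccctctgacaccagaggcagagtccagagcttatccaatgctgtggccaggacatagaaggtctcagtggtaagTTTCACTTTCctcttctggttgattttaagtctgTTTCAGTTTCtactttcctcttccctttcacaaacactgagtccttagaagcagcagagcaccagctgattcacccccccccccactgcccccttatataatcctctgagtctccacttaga
Myl9: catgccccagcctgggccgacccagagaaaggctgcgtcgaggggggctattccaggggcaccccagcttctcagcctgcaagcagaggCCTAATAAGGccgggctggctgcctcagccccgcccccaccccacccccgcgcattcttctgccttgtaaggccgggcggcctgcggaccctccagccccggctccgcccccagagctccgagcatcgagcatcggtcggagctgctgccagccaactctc

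Isg15 held 3 overlapping matches, the most upstream of them starting 78 bases before the annotated start, and Ifit3 held 2. In the RefSeq promoter table, whose windows run from 250 bases before to 50 after a start, this core was found in 3.99% of 27025 promoters and in 4.18% of the 6268 members with a promoter there. It was found in 17 of 84 promoters (20.2%) of named genes at least 1.5-fold higher, in 2 of 63 (3.17%) of those at least 1.5-fold lower, and in 20 of 40 (50%) of the interferon list. The higher genes include members of the interferon list, so the shares of these sets overlap and are not separate results. The PU-box GAGGAAGT, a sequence that PU.1 and Spi-C bind, was found on either strand in 3.69% of all promoters, 4.21% of the members, 4 of 84 (4.76%) of the higher and 1 of 63 (1.59%) of the lower genes. A match is a description of letters in this window, not evidence of binding.

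The values behind the interferon list ran as follows. Isg15 had 54.4 FPKM in control against 88.7 in knockout without LPS, and 1349 and 1853 with LPS. Ifit3 stood at 19.6 and 35.0 FPKM without LPS and at 183 and 313 with LPS. Bst2, which encodes the membrane tether tetherin, stood at 278 and 462 FPKM without LPS and at 437 and 673 with LPS. In each of these genes the knockout library was higher than the control library of the same LPS state. Zbp1, a sensor of nucleic acids in the Z form, had 28.2 and 49.3 FPKM without LPS, a ratio of 1.75 (1.56 to 1.96). Ifi205 had 13.8 and 26.8 FPKM, a ratio of 1.95 (1.68 to 2.25). Irf7, the factor that amplifies the interferon response, had 259 and 365 FPKM. Ifnb1, the interferon beta gene, stood at 0.23 and 0.14 FPKM, under the minimum in both.

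Class II presentation genes divided. The invariant chain gene Cd74 had 49.2 FPKM in control and 111 in knockout without LPS, a ratio of 2.27 (2.09 to 2.46), and 78.8 and 175 with LPS. H2-Aa had 17.8 and 35.1 FPKM without LPS and 23.9 and 42.3 with LPS. H2-Ab1 had 17.3 and 34.2 FPKM without LPS and 49.2 and 81.4 with LPS. These 3 genes for the class II dimer and its chaperone were higher in the knockout library of each pair. They were the 3 of 9 measured members past 1.5-fold, and the list's median was 0.29. H2-Eb1, the other class II beta chain gene, stood at 5.34 and 5.55 FPKM (0.05). Log2 ratios were 0.29 for H2-DMa, which helps load peptides, and 0.25 for Ctss, the protease that trims the invariant chain. That of the lysosomal reductase Ifi30 was −0.03. Ciita, the class II transactivator, was under 1 FPKM in both. Class I presentation genes had a median of 0.17, with 0 of 18 past 1.5-fold. Of 18 dendritic cell markers, which include cells rich in class II, 5 reached 1 FPKM; Itgax stood at 2.41 and 4.11 FPKM, Clec10a at 8.57 and 14.004 and Batf3 at 3.43 and 1.38. The other 2 were Irf8, at 47.2 and 51.9 FPKM, and Cd83, at 6.04 and 5.26. The summed level of these 5 markers, most of it from Irf8, was 67.7 FPKM in control and 76.7 in knockout. Their part in the class II values was not tested.

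Some cytokine genes, such as Il1b, were at low levels without LPS, and several of the list were higher in the knockout. Il1b, which encodes interleukin 1 beta, had 1.37 FPKM in control and 6.70 in knockout without LPS, and 5779 and 8589 with LPS. The ratio without LPS was 4.88 (3.06 to 7.74), on an estimated 25 and 99 fragments. So the knockout value without LPS was far below either value with LPS. Il1rn, the receptor antagonist, had 33.8 and 69.4 FPKM without LPS and 1084 and 1460 with LPS. Tnfsf13, the B cell factor APRIL, had 9.26 and 22.5 FPKM without LPS and 5.96 and 16.2 with LPS. Tnfsf13 thus differed by more than 2-fold in each pair and, unlike Il1b and Il1rn, was not higher with LPS. Il15 had 11.4 and 19.2 FPKM without LPS, and Spp1, which encodes osteopontin, 477 and 756. Tnf, at 48.99 and 65.5 FPKM, had a log2 ratio of 0.41. Of 19 measured members of the list, 7 were at least 1.5-fold higher and 0 lower, with a median of 0.35. Of the 7, 1 was under the 1 FPKM minimum in control and entered through its knockout value alone, on an estimated 2 and 13 fragments. Over members from 5 FPKM the median was 0.37. Csf1, the growth factor of macrophages, was the lowest, at 12.7 and 9.37 FPKM (−0.40).

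Chemokine genes had a median log2 ratio of 0.54 over 19 members, with 8 at least 1.5-fold higher and 2 lower. Cxcl3, which draws neutrophils, had 3.81 FPKM in control against 9.89 in knockout without LPS and 865 and 1022 with LPS. Ccl12, which draws monocytes, stood at 5.27 and 12.3 FPKM without LPS and at 44.0 and 68.8 with LPS. Cxcl14 stood at 12.4 and 27.0 FPKM without LPS and at 7.28 and 14.2 with LPS. The 2 lower members were Cxcl12, the stromal chemokine that holds progenitors in the marrow, and Cx3cl1, at 1.72 and 0.76 FPKM. For Cx3cl1 the estimate was 7 and 3 fragments, and the interval of the ratio, 0.086 to 2.27, included 1. Cxcl12 had 91.6 and 49.5 FPKM without LPS and 101 and 56.3 with LPS, a ratio of 0.54 (0.511 to 0.571) without LPS, and is also on the mesenchymal list.

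Receptors and signalling genes of the Toll-like receptor and NF-kB pathways lay slightly above 0, with single members at 2-fold. Cd14, the co-receptor that hands LPS to TLR4, had 114 FPKM in control and 234 in knockout without LPS, and 3523 and 4092 with LPS. Tlr4 itself had 28.5 and 28.7 FPKM, and its partner gene Ly96 56.3 and 57.4. The pathway list had a median of 0.21 with 27 of 29 members above 0, and Cd14 was the 1 member past 1.5-fold. NF-kB subunits and inhibitors had a median of 0.24 with 26 of 28 above 0. Traf1, an adaptor of tumour necrosis factor receptors, was the 1 past 1.5-fold, at 8.25 and 17.95 FPKM. Clec4e, the Fc receptor gamma-coupled lectin Mincle, had 29.4 and 61.8 FPKM. Gpr84, a receptor for medium-chain fatty acids, had 11.6 and 27.96 FPKM, and Siglece, an inhibitory sialic acid receptor, 4.29 and 11.4, with 14.998 and 35.4 with LPS. Scaling the libraries by their median ratio put Cd14, Clec4e, Il1rn, Irg1, Ms4a4c, Pilrb1 and Traf1 under 2-fold.

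Effector and complement genes were higher in part. Ch25h, which makes 25-hydroxycholesterol, had 2.35 FPKM in control and 8.78 in knockout without LPS, and 43.03 and 85.7 with LPS. Ptgs2, the inducible cyclooxygenase, had 1.82 and 5.93 FPKM without LPS and 1710 and 2660 with LPS. Irg1 (now Acod1), which makes itaconate, had 18.9 and 39.4 FPKM without LPS and 2802 and 3458 with LPS. These 3 enzyme genes were higher in the knockout library of each pair. Other members were not: Saa3, an acute-phase protein gene, had 129 and 204 FPKM without LPS and 7279 and 7015 with LPS, and Lcn2 had 2.48 and 5.63 FPKM without LPS and 295 and 265 with LPS. Of 29 effector members 10 were at least 1.5-fold higher and 3 lower, and the list's median was 0.31. The lower ones were Thbs1, Ptx3, a secreted pattern receptor that fibroblasts also make (11.2 and 5.14 FPKM), and F3, tissue factor (1.496 and 0.602). With LPS, F3 was on the other side, at 7.97 and 21.4 FPKM. Complement genes had a median of 0.42 over 15 members. C3, at 39.1 and 64.99 FPKM, and Cfb, at 31.1 and 52.1, were past 1.5-fold. The C1q chains C1qa, C1qb and C1qc had log2 ratios of 0.47, 0.44 and 0.39.

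**Figure D3:**
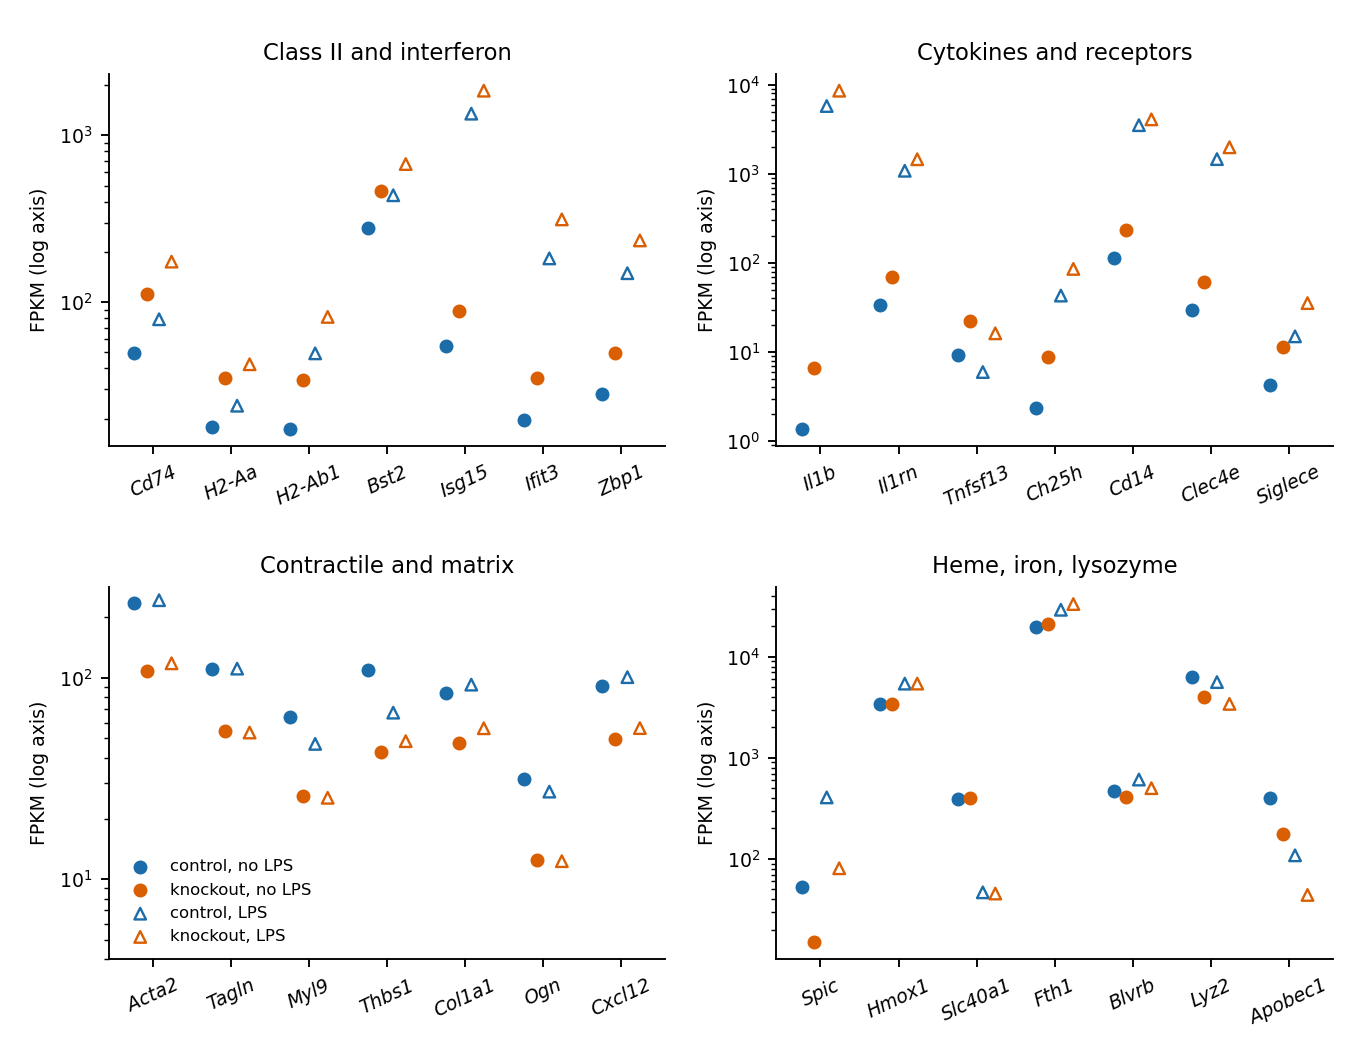
FPKM (y, log axes) of 28 genes in each of the 4 libraries, blue for control and orange for knockout, filled circles without LPS and open triangles with LPS; 1 point is 1 library and there are no error bars. In the 2 upper panels the knockout is above the control of the same LPS state for every gene shown; in the contractile and matrix panel it is below, and in the last panel Hmox1 and Slc40a1 have nearly equal values.

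The genes of heme breakdown and iron handling, the setting in which Spi-C is best known, differed little. Hmox1 had 3396 FPKM in control against 3395 in knockout without LPS, and 5423 and 5426 with LPS. Slc40a1, the ferroportin gene, stood at 395 and 396 FPKM without LPS and at 46.7 and 45.4 with LPS. Both genes had nearly equal levels in the 2 genotypes in either LPS state. Fth1 stood at 19563 and 21322 FPKM without LPS, and Ftl1 at 19785 and 17875. Blvrb, a biliverdin reductase, stood at 474 and 405 FPKM, and the lysosomal heme transporter gene Slc48a1 at 443 and 466. Of 29 measured members, Lcn2, which binds iron-loaded bacterial siderophores, was the 1 past 1.5-fold, at 2.48 and 5.63 FPKM. The median was 0.03 as deposited and −0.02 after scaling by median ratio. Nrf2-driven antioxidant genes had a median of −0.07, with 4 of 21 above 0 and none past 1.5-fold. Gclm, which feeds glutathione synthesis, had 424 and 338 FPKM, a log2 ratio of −0.33.

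Red pulp macrophage genes had a median of 0.00 over 14 members, and the 2 at least 1.5-fold lower were Spic and Epb4.1l3 (3.43 and 1.93 FPKM). Cd5l, a secreted scavenger protein of tissue macrophages, came next at 219 and 150 FPKM without LPS and 143 and 106 with LPS, a ratio of 0.686 (0.658 to 0.715). Vcam1, which Spi-C-dependent macrophages carry, stood at 5.01 and 5.33 FPKM, and Treml4 at 18.8 and 15.6. Siglec1, at 44.3 and 57.8 FPKM, and the oxysterol receptor gene Nr1h3, at 27.6 and 36.6, had log2 ratios of 0.37 and 0.39. Among Ets factors, Spic was the 1 of 16 past 1.5-fold, and Sfpi1 had 259 and 322 FPKM, a log2 ratio of 0.31.

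Genes of the extracellular matrix stood out among the lists on the lower side. Of 40 measured matrix genes, 28 were at least 1.5-fold lower and 0 higher, and the median was −0.69. Thbs1, the adhesive glycoprotein thrombospondin 1, had 109 FPKM in control and 43.03 in knockout without LPS, and 67.2 and 48.5 with LPS. Ogn, a small leucine-rich proteoglycan, had 31.3 and 12.5 FPKM without LPS and 27.2 and 12.3 with LPS. Col1a1, which encodes a chain of type I collagen, had 84.04 and 47.3 FPKM without LPS and 92.6 and 56.2 with LPS. For each of these genes the knockout library was lower in both LPS states. Fn1, Sparc and Postn, which encode fibronectin, osteonectin and periostin, had ratios of −0.85, −0.79 and −0.78. The list was not uniform: Timp1 stood at 42.6 and 43.2 FPKM, Mgp at 26.02 and 26.9, Dcn at 2.71 and 2.82 and S100a6 at 541 and 617. In bulk RNA, fewer cells of a type and less RNA per cell cannot be told apart.

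Contractile genes of smooth muscle and myofibroblasts were lower as well, with 15 of 24 at least 1.5-fold lower, 0 higher and a median of −0.73. Acta2, smooth muscle actin, had 237 FPKM in control and 109 in knockout without LPS, and 243 and 118 with LPS, a ratio of 0.46 (0.439 to 0.481) without LPS. Tagln, the actin-binding transgelin, had 110 and 54.6 FPKM without LPS and 111 and 53.5 with LPS. Myl9 had 64.1 and 25.96 FPKM without LPS and 46.99 and 25.4 with LPS. In each pair the knockout library was the lower one for all 3. The matricellular genes Ctgf, at 89.7 and 44.3 FPKM, and Cyr61, at 26.6 and 12.95, had knockout values of 49.4% and 48.7% of control. Differences of other members were smaller or on the other side: Actn1 had 49.2 and 43.3 FPKM, Myh9 64.1 and 59.1, Flna 154 and 148, and Tagln2 306 and 405. Serum response factor itself, Srf, had 13.3 FPKM in both. The CArG box printed for Myl9 was found in 1.81% of all promoters, 1.52% of the members and 6 of 63 (9.52%) of the named genes at least 1.5-fold lower. It was found in 4 of 19 (21.1%) of the contractile list and 0 of 28 of the matrix list. The 4 were Myl9, Cnn2, Vcl and Srf, and of them Myl9 alone was among the 8 list members whose ratio lay farthest from 0. None was found for Acta2, Tagln, Ctgf or Cyr61, some of which may lack a promoter among the 19.

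Mesenchymal surface and secreted markers were mixed, with a median of −0.12 over 19 of 26, 3 at least 1.5-fold lower and 1 higher. Dkk3 stood at 21.8 and 12.9 FPKM, Prrx1 at 7.78 and 4.87 and Pdgfrb at 9.12 and 6.87. Igfbp4, at 31.9 and 38.8 FPKM, and Ly6a, at 317 and 478, were on the other side. The summed level of this list, most of it from Ly6a without LPS, was 585 FPKM in control and 684 in knockout without LPS. With LPS it was 655 and 701. That of the matrix list was 1902 FPKM in control and 1446 in knockout without LPS, and 2089 and 1552 with LPS. That of the contractile list was 1466 and 1134 without LPS and 1685 and 1527 with LPS. Abundant members weigh most in such sums. S100a6 and Tagln2 had the highest ratios of the matrix (0.189) and contractile (0.403) lists. Both are in these sums and make the differences without LPS smaller. Ly6a likewise raises the knockout sum of the mesenchymal surface list, whose median was below 0. Tcf21 was listed at 0 in both libraries and Eln in all 4, and Lum was under 1 FPKM. The higher levels of interferon, class II and cytokine genes were measured in the same pair of libraries, and the part of a mesenchymal share of the culture in them was not tested.

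Several single genes outside these groups stood apart. Apobec1, the deaminase that edits apolipoprotein B RNA, had 397 FPKM in control and 176 in knockout without LPS and 108 and 44.0 with LPS, a ratio of 0.444 (0.428 to 0.459) without LPS. Lyz2, the macrophage lysozyme gene, had 6340 and 4014 FPKM without LPS and 5620 and 3419 with LPS. Lyz1 had 716 and 459 FPKM without LPS and 661 and 390 with LPS. The lysozyme genes thus had log2 ratios from −0.64 to −0.76 over the 2 pairs. Without LPS they were the 2 of 16 measured macrophage markers at least 1.5-fold lower. Of the 16, 11 lay above 0, Emr1 (0.32) and Csf1r (0.21) among them, and 5 below, with a median of 0.19. Cd5l, on the red pulp list, was also lower (−0.54). Lyz1 and Lyz2 are close paralogs, so the split between them is uncertain. The Lyz2 promoter drives a Cre line common in myeloid studies. Whether such a line was used here is not given in the labels, and its part in the Lyz2 values was not tested. Wdfy1, an adaptor in Toll-like receptor signalling, had 2.65 and 8.75 FPKM without LPS and 3.15 and 9.35 with LPS. Cd52, a small surface glycoprotein, had 451 and 832 FPKM.

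Among neutrophil markers, 7 of 17 reached 1 FPKM, with S100a9 at 16.7 and 9.94 FPKM, S100a8 at 20.2 and 18.5, Ngp at 2.62 and 0.89, Mmp8 at 27.9 and 35.7, Csf3r at 10.5 and 12.3, Camp at 1.47 and 1.78 and Lcn2 at 2.48 and 5.63. Of the 7, 4 lay above 0 and 3 below, with a median of 0.17, and their summed level was 81.8 FPKM in control and 84.7 in knockout. Heat shock genes had a median of 0.03, and the 3 of 17 at least 1.5-fold lower were the small heat shock protein genes Hspb8 (3.07 and 1.20 FPKM), Hspb1 (6.995 and 3.56) and Cryab (2.95 and 1.34). Cell cycle genes (median −0.05, 0 of 28 past 1.5-fold), lysosome genes (0.08), cholesterol synthesis genes (0.08), genes of lipid efflux (0.16) and the integrated stress response (0.01) had medians near that of all genes. For genes of glycolysis and hypoxia the median was 0.19, and 2 of 25 were past 1.5-fold, both higher.

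Some of the most extreme ratios belonged to genes with a near-identical copy elsewhere, among which the counting can divide fragments in any way. Of 43 named genes past 2-fold whose transcripts were searched, 9 had a copy at 95% identity or more over at least 50% of the shorter transcript. Rps27, a ribosomal protein gene, had 962 and 51.8 FPKM in control and knockout, and its copy Gm9846 had 966 and 1874. The 2 summed to 1927.5 and 1925.9 FPKM without LPS and to 2308 and 2026 with LPS. The ratio of Rps27 (−4.19), the lowest among named genes, was therefore absent from the sum. The proton pump subunit gene Atp6v0c, at 609.6 and 216 FPKM, and its pseudogene Atp6v0c-ps2, at 117 and 594, summed to 726 and 811. Rpl34-ps1, at 63.8 and 201 FPKM, summed with Rpl34 to 1027 and 1087. Ugt1a6b, a glucuronosyltransferase gene, had the highest ratio among named genes (2.55), at 2.54 and 19.7 FPKM without LPS and 2.86 and 20.7 with LPS. It shares exons with its family. Its sum without LPS was 55.9 and 100.4 FPKM with Ugt1a7c, the most abundant of these genes at 53.4 and 80.7 FPKM, and 7.2 and 25.2 FPKM with Ugt1a6a. Pilrb1, which also has close copies, stood at 9.37 and 20.1 FPKM. Snhg9, at 3.66 and 13.3 FPKM, is the host of a small RNA gene and is uncertain for that reason. A sum of FPKM over copies of unequal length is not the FPKM of the pair.

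**Figure D4:**
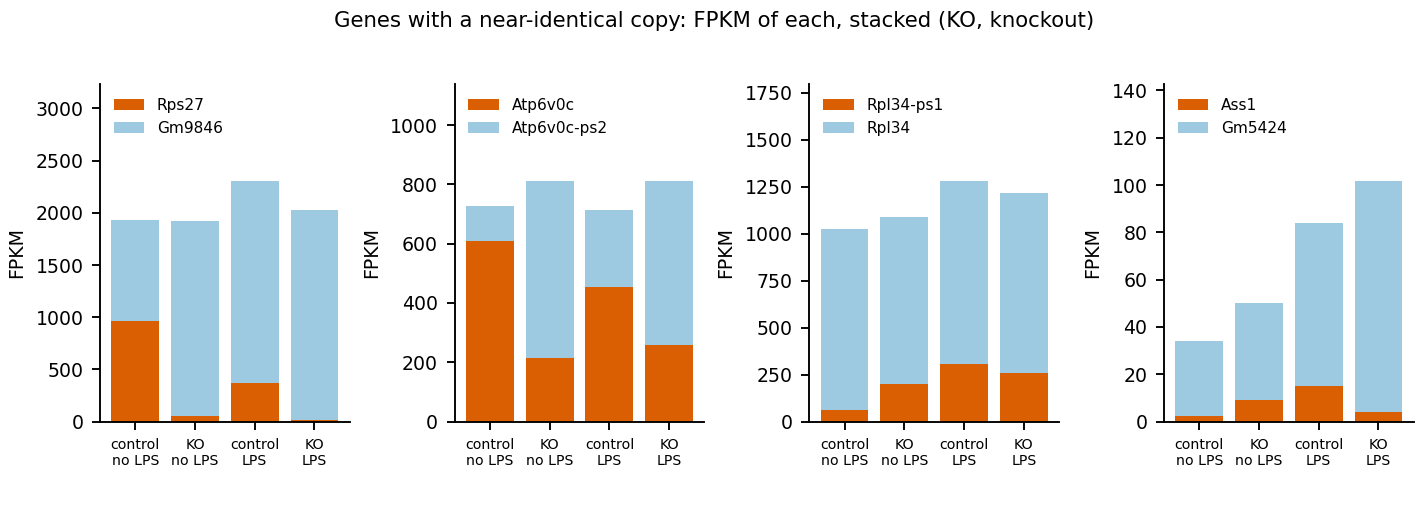
FPKM (y, stacked bars from 0) of 4 genes (orange) and their near-identical copies (light blue) in the 4 libraries (x; KO, knockout). For Rps27 without LPS the stacks reach 1927.5 and 1925.9 FPKM although Rps27 alone goes from 962 to 51.8.

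The pair with LPS gave a second view of the same genotype contrast in other libraries. The labels do not say whether the 2 libraries of a genotype came from the same animals, so the 2 pairs may not be independent. There, 215 of 7509 genes (2.86%) were at least 1.5-fold higher in the knockout and 127 (1.69%) lower. Of the 116 named genes at least 1.5-fold higher without LPS, 108 reached 5 FPKM with LPS, 102 (94.4%) of them were above 0 and 48 were at least 1.5-fold higher. Over all named genes above 0 without LPS the share above 0 with LPS was 77.6% of 4645. Of the 89 at least 1.5-fold lower, 78 reached 5 FPKM with LPS, 76 (97.4%) were below 0 and 54 at least 1.5-fold lower, and over all named genes below 0 the share was 52.5% of 1992. The median of the higher genes was 0.73 without LPS and 0.57 with LPS, and that of the lower genes −0.75 and −0.71. Matrix genes had a median of −0.57 with LPS, contractile genes −0.47 and interferon-stimulated genes 0.49. In the higher set, Cd14 (1.03 without and 0.22 with LPS), Cxcl3 (1.18 and 0.24) and Irg1 (1.02 and 0.30) were among those closer in the pair with LPS, while Cd74 (1.16 and 1.14), Tnfsf13 (1.20 and 1.31), Siglece (1.23 and 1.19) and Wdfy1 (1.42 and 1.32) had similar ratios in both. Differences between the 2 pairs were not tested.

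**Figure D5:**
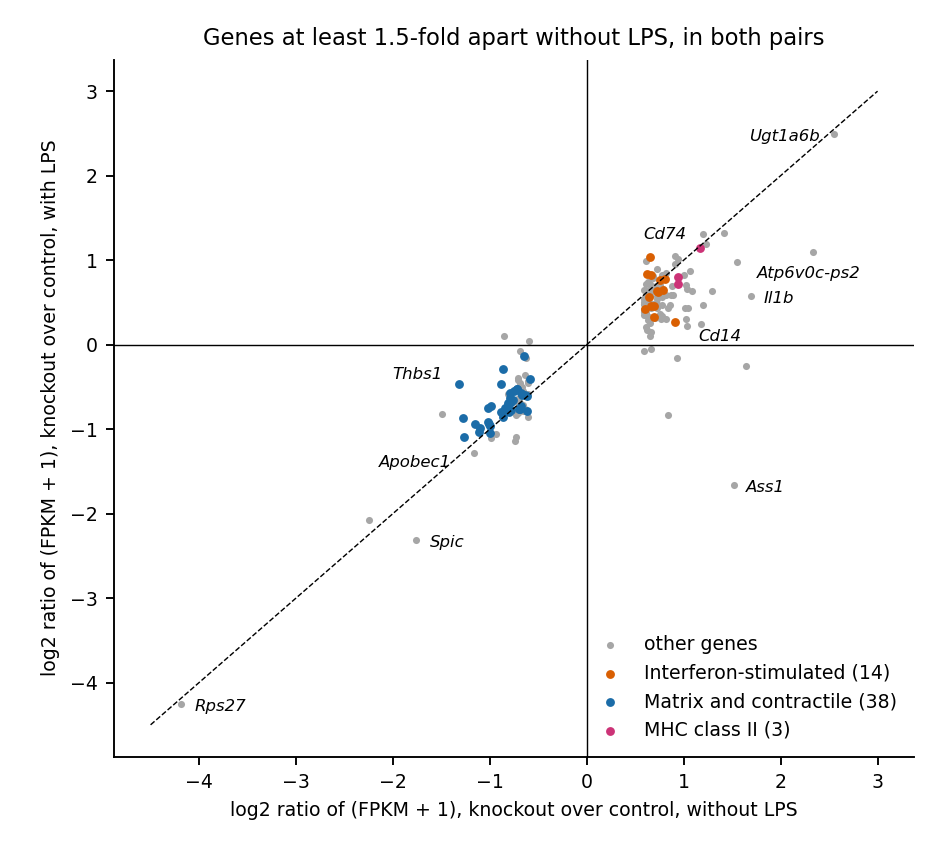
Log2 ratio of (FPKM + 1), knockout over control, without LPS (x) and with LPS (y), for the named genes at least 1.5-fold apart without LPS and from 5 FPKM with LPS; the dashed line is equality and each point is 1 gene. Most points lie at the lower left and upper right, with Ass1 (1.52 and −1.66) the farthest exception.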

How the data were processed

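RNA was measured in 4 libraries of cultured mouse macrophages, 1 per group, and the pair without LPS is the one described. TruSeq stranded mRNA libraries were prepared from RNeasy-purified RNA, per the labels' protocols. The authors deposited FPKM per gene on mm10, with Cuffnorm 2.2.1, TopHat2 2.0.13, SAMtools 0.1.19 and Bowtie2 2.2.3 listed in the submitters' processing notes. The annotation behind the values is not named in those notes.

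Ratios are log2 ratios of (FPKM + 1) with no further scaling, which understate the change of low genes. Genes needed 5 FPKM, and list members 1 FPKM, in 1 of the 2 libraries. No test was run. From the spacing of low values, 1 FPKM equalled 15.6 fragments per kilobase in control and 12.9 in knockout without LPS, and 10.6 and 8.07 with LPS; these estimates, with the median length of a gene's GENCODE transcripts, gave the fragment numbers and 95% intervals, which are too wide where short transcripts lower that median. Steps were run with Python 3.11.15, pandas 2.3.3, scipy 1.17.1 and blastn 2.17.0, and checked on simulated data.

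Named were Spic, the 20 highest and 20 lowest ratios, the 15 highest and 15 lowest from 50 FPKM, and from each of 46 lists up to 8 members whose ratio lay farthest from 0, leaving out small RNA genes and unnamed features. A few genes chosen this way are not reported here. Rpl34, Gm9846, Gm5424, Actn1, Adar, C1qc, Cd68, Ciita, Csf1, Dcn, Eln, F3, Flna, Fth1, Ftl1, Hmox1, Ifi30, Ifnb1, Igf1, Igfbp4, Lum, Ly96, Mgp, Myh9, Pdgfrb, Pilrb1, S100a6, Saa3, Slc40a1, Slc48a1, Srf, Tagln2, Tcf21, Timp1, Tlr4, Tnf, Vcam1 and the 4 genes at the 5 FPKM minimum were named after their values were seen. The members, lists and rules were chosen with earlier results of these data known. Alternatives were another pseudocount, minimum, scaling or fold, no small RNA genes or unnamed features and, chosen after seeing the data, no genes with a near-identical copy.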

Additional observations from a re-analysis of the deposited data

Results flagged for a closer look

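Ass1, which encodes an enzyme of arginine synthesis, went opposite ways in the 2 pairs: its log2 ratio, knockout over control, was 1.52 without LPS (2.56 and 9.21 FPKM) and −1.66 with LPS (15.2 and 4.095 FPKM). The difference was not tested, with 1 library for each value. Its near-identical copy Gm5424 stood at 31.7 and 40.9 FPKM without LPS and at 69.0 and 97.7 with LPS, so that the 2 summed to 34.3 and 50.1 FPKM without LPS and to 84.1 and 101.8 with LPS. The sum was higher in the knockout of each pair, and the division of fragments between the 2 was not tested.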

How the results depend on the processing

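The 38 higher and 32 lower genes at 2-fold were within 1.5 times of these counts with a pseudocount of 0.1 FPKM, with a minimum of 1 FPKM or none and under either scaling. They were 19 and 21 with a pseudocount of 5 FPKM, 17 and 16 at 3-fold, 136 and 106 at 1.5-fold, and 25 and 19 without small RNA genes and unnamed features. A minimum of 20 FPKM left 25 higher genes. Leaving out genes with a near-identical copy as well, an alternative chosen after seeing the data, left 18 and 17. Spic was at −1.54 with a pseudocount of 5 FPKM. Of 44 named genes past 2-fold, 29 were under it at the higher pseudocount, 7 under median-ratio scaling and 8 under upper-quartile scaling. Medians near 0 took the other sign after median-ratio and upper-quartile scaling: heme and iron (−0.018, −0.051), red pulp (−0.047, −0.08), integrated stress (−0.039, −0.071), heat shock (−0.018, −0.052), Ets factors (−0.021, −0.051) and ribosomal protein genes (−0.021, −0.055). The lysosome median was −0.003 after upper-quartile scaling. With members from 5 FPKM the medians of cell cycle (0.157), monocyte (0.073), B cell (0.256) and adipocyte genes (0.081) took the other sign, the last also with a pseudocount of 5 FPKM (0.008). No paired analysis was possible because the groups share fewer than 2 replicate numbers, with 1 library each. A fit of genotype with LPS state as the block, which leaves 1 residual degree of freedom, was not run. Depth limits low genes: a ratio such as that of Il1b rests on 25 and 99 fragments, and small RNA genes at 0 in 1 library have no interpretable fold.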
